A study of Mus musculus with 12 samples.

Results

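Expression was examined for 10 immediate early genes: the AP-1 genes Fos, Fosb, Fosl1, Fosl2, Jun, Junb and Jund, the zinc finger genes Egr1 and Egr2, and Arc. They were taken by symbol from a table of 42329 entries, and each of the 10 symbols had 1 entry. RNA had been sequenced from MC38, a mouse colon adenocarcinoma line, carrying a control guide (sgControl) or one that targets Hcar1 (sgHcar1), which encodes a lactate receptor of the G protein-coupled kind. Each population was kept in saline vehicle (PBS) or in 20 mM lactate for 24 hours, with 3 libraries for each of the 4 combinations and 12 in all. Every group is MC38 with a guide, and the labels do not say whether a guided population is a clone or a pool, or whether the 3 libraries of a group are separate cultures. The p-values therefore measure the spread between these libraries, which may be technical, and the effect of the guide cannot be told apart from other differences between the 2 populations.

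AP-1 is a dimer of basic leucine zipper (bZIP) proteins. Jun proteins pair with each other or with a Fos protein, whereas Fos proteins need a Jun partner, and the choice of partner sets how strongly the dimer activates its targets. Fos, Fosb, Egr1, Egr2 and Arc are classic immediate early genes, transcribed without new protein synthesis when growth factors, calcium or stress activate MAP kinases, SRF with its ETS partners, and CREB. Their RNAs usually rise and decline quickly after a stimulus, while Fosl1 and Fosl2 come later and are sustained in many epithelial tumours. Arc is best known for its role at synapses.

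The promoters of Fos, Fosb, Jun and Egr2 are shown because these are the 4 members with the largest differences between the 2 lactate effects described below, among the 7 of 10 members that had a window in the RefSeq table (build GRCm38.p6). Each window runs from 250 bases before to 50 bases after the start site and is written 5′ to 3′ along the gene, with matches to the searched motifs in capitals. The Fos window is chr12:85473640-85473939 on the plus strand, the Fosb window chr7:19309996-19310295 on the minus strand, the Jun window chr4:95052173-95052472 on the minus strand and the Egr2 window chr10:67537619-67537918 on the plus strand.
Fos: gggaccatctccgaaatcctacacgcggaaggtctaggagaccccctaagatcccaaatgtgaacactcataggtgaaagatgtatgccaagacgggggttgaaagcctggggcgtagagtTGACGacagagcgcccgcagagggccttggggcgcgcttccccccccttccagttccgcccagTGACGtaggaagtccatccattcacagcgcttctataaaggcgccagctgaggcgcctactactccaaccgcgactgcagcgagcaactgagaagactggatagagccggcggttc
Fosb: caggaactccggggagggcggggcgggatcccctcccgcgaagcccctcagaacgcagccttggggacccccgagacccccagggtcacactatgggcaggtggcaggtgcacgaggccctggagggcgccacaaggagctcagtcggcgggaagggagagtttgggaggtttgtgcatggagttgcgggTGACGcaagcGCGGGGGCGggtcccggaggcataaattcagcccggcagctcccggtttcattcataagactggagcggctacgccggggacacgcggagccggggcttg
Jun: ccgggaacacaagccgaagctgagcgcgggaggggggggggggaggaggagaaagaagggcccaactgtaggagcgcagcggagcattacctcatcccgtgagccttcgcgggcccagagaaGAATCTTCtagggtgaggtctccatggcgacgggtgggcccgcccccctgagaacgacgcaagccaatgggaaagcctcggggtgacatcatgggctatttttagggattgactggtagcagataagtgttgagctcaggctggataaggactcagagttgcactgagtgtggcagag
Egr2: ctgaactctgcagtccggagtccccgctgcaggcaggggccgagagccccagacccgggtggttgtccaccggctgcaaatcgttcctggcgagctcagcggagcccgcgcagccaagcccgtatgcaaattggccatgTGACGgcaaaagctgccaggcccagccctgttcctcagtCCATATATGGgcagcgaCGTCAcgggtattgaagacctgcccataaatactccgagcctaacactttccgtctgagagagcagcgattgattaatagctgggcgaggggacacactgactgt

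The capitals in Fos mark TGACG, the core of the cAMP response element that CREB and ATF proteins bind, at -129 and -66 from the start site. In Fosb they mark the same core at -60 and an EGR site, GCGGGGGCG, at -50. In Jun they mark GAATCTTC at -128, which has the letters of a heat shock element. In Egr2 they mark a CArG box, the site of SRF, at -72, and the TGACG core at -111 and, as its reverse complement CGTCA, at -55. Of the windows that are not printed, Fosl2 held an EGR site at -79 and GAAGTTTC at -244, Junb held TGACG at -106, and the Jund window held no match. Egr2 had 5 windows in the table, and another of them held a different CArG box at -72. The motifs were searched on both strands in 32851 windows of the same length, and 20.8% of those held TGACG, 5.55% the EGR site GCGNGGGCG, 7.86% the heat shock element GAANNTTC and 1.63% a CArG box. The full response element TGACGTCA (1.79% of windows, and it contains TGACG), the AP-1 site TGANTCA (7.81%), the ETS site CCGGAAG (8.86%) and the CARE site TGATGNAA (3.97%) were in none of the members' windows. A match describes the letters in the window and does not show that a factor binds there. Near matches were not counted, such as tgacatca in the Jun window, which is close to TGACGTCA.

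Values are FPKM, fragments scaled by the length of the gene model and the size of the library, so levels can be compared between genes. The table holds no counts, and relative depth, read from the steps between low values, was 0.746 to 1 of the deepest library, with the 3 sgHcar1 lactate libraries the shallowest. For Fos, Fosb, Egr1, Egr2 and Arc the same steps gave the smallest whole numbers of fragments that fit the values, all within 0.05 of whole. Effects are given with their standard error on the scale log2(FPKM + 1) and come from limma, fitted on 13736 genes that reached 1 FPKM in at least 3 libraries, with Benjamini-Hochberg adjusted p and a threshold of 0.05. This scale understates changes of low genes. All 10 members passed the filter, but Fos and Egr2 reached 1 FPKM only in sgHcar1 cells in lactate, so they could enter the fit only by being high there. Hcar1 itself was listed at 0 in 11 libraries and at 0.0196 FPKM in 1 sgHcar1 PBS library. A two-sided exact permutation test of 6 against 6 libraries gave p = 1 (smallest possible 0.00216), so RNA gives no check of the guide.

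MC38 is labelled as colon, and of 9 markers of colon epithelium 8 had an entry and 3 reached 1 FPKM, while Epcam and Cdx2 were listed at 0 in every library. Their summed level was 3.05 to 3.32 FPKM in sgControl PBS, 4.92 to 5.16 in sgControl lactate, 44.9 to 48.5 in sgHcar1 PBS and 110.3 to 114 in sgHcar1 lactate, nearly all of it Krt18 in the sgHcar1 cells, where Cdh1 was listed at 0. The neuronal list (6 of 7 with an entry, 3 reaching 1 FPKM) ran the other way, from 223 to 231 FPKM in sgControl PBS and 149 to 163 in sgControl lactate down to 3.10 to 4.33 and 2.47 to 2.62 in sgHcar1 cells. Tubb3 made up 223 and 148 FPKM of the sgControl means and 2.53 and 1.89 FPKM of the sgHcar1 means, where Nefl added 0.801 and 0.380 FPKM, and Rbfox3 and Snap25 were listed at 0. Of 8 fibroblast markers 6 reached 1 FPKM, with a sum of 129 to 150.1 FPKM in 3 groups and 66.8 to 72.6 in sgHcar1 lactate, while Thy1 and Lum were listed at 0. Behind these sums the members differed in opposite directions between the guides in PBS. Col3a1 was 67.2 FPKM in sgControl and 1.55 in sgHcar1, and Dcn, Pdgfra and Pdgfrb were also lower in sgHcar1 (7.83 and 0.293, 5.02 and 0.462, 17.8 and 5.08 FPKM), whereas Col1a1 was 1.01 and 23.1 and Col1a2 45.5 and 115 FPKM. Leukocyte markers (1 of 6 reaching 1 FPKM, Cd14, with Cd3e, Itgam and Adgre1 listed at 0) summed to 3.82 to 14.1 FPKM, and the 4 endothelial markers to 0.526 to 1.90 FPKM. The part of these shifts in the results below was not tested. In bulk RNA, fewer cells of a type and less RNA per cell cannot be told apart.

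**Figure D1:**
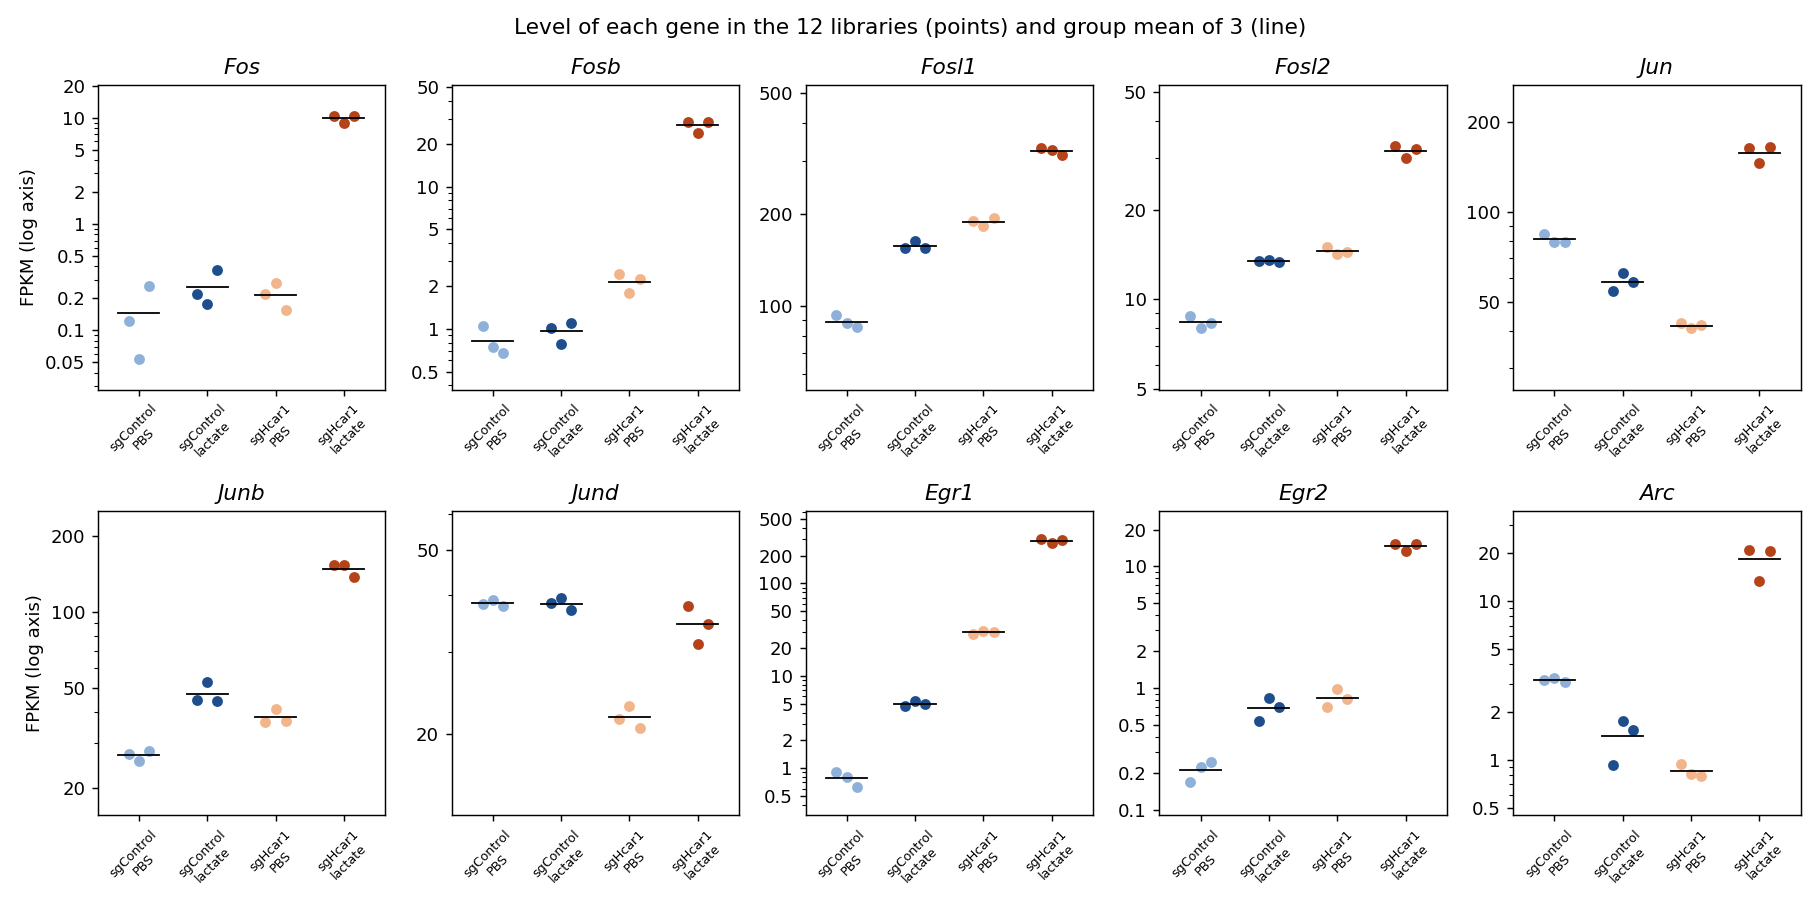
Level of the 10 genes in each of the 12 libraries, as FPKM on a log axis, with 1 panel per gene, 1 point per library and a line at the mean of each group of 3. The sgHcar1 lactate libraries are above all other libraries except for Jund, where they overlap the sgControl lactate libraries. Fos and Egr2 passed the filter only through sgHcar1 lactate. The share of all genes that separate in this way was not counted.

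In sgControl cells, lactate raised 5 members and lowered 2. Egr1 rose from 0.783 ± 0.144 to 5.01 ± 0.341 FPKM (SD, n = 3), 6.40-fold, Egr2 3.21-fold, Fosl1 1.78-fold, Junb 1.75-fold and Fosl2 1.61-fold as ratios of mean FPKM. On the log2(FPKM + 1) scale Egr2, at low levels, comes last of these. Jun and Arc fell, and Fos, Fosb and Jund did not pass the test. Of all 13736 genes, 33.9% rose and 31.9% fell, so a call alone says little about a member. The members' median log2 change was 0.30, against 0.00 over all genes.

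In sgHcar1 cells, lactate raised all 10 members, 8 of which had not entered the fit through this group alone. The increase was 45.6-fold for Fos, 21.6-fold for Arc, 17.6-fold for Egr2, 12.6-fold for Fosb and 9.82-fold for Egr1 as ratios of mean FPKM, and 1.59-fold to 3.90-fold for the other 5. In this contrast 36.8% of all genes rose and 35.4% fell. Ranked by log2 change among 13736 genes, Arc stood at 17, Egr1 at 21 and Fosb at 26.

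Fos encodes the best-known partner of Jun and is usually almost silent in cells at rest. Its level was 0.122, 0.0540 and 0.263 FPKM in the 3 sgControl PBS libraries and 0.218, 0.179 and 0.371 FPKM in sgControl lactate. With the Hcar1 guide, Fos had 0.219, 0.277 and 0.154 FPKM in PBS and, in lactate, 10.3, 8.85 and 10.4 FPKM. The first 3 groups overlapped, and every sgHcar1 lactate library was far above them. In fragments, these levels correspond to 18, 30 and 24 over the 3 libraries of each low group and to 957 in sgHcar1 lactate. The lactate effect was 0.13 ± 0.09 in sgControl (adjusted p = 0.238) and 3.16 ± 0.09 in sgHcar1 (adjusted p = 1.36e-10). Fos could enter the fit only by being high in sgHcar1 lactate, so the sgHcar1 effect stands as a description. With a pseudocount of 0.1 the sgHcar1 effect was 4.99.

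Fosb, which encodes a close relative of Fos with a long-lived truncated isoform that a gene-level value does not separate, stood at 1.04, 0.745 and 0.676 FPKM in sgControl PBS and 1.02, 0.784 and 1.10 FPKM in sgControl lactate. The sgHcar1 libraries had 2.42, 1.79 and 2.24 FPKM in PBS and, in lactate, 28.7, 24.0 and 28.5 FPKM. The 2 sgControl groups overlapped, the sgHcar1 PBS libraries were all above them, and the sgHcar1 lactate libraries were above everything else. Fragments summed to 157, 182, 383 and 4187 in the 4 groups in that order. The lactate effect was 0.11 ± 0.11 in sgControl (adjusted p = 0.386) and 3.16 ± 0.11 in sgHcar1 (adjusted p = 4.23e-10).

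Fosl1 encodes FRA1, the Fos protein most often raised in carcinoma cells with active ERK. It was the most abundant Fos gene in every library, with 93.2, 88.3 and 85.4 FPKM in sgControl PBS and 155, 164 and 155 FPKM in sgControl lactate. The sgHcar1 PBS libraries had 190.3, 184 and 195 FPKM and those in lactate 331, 325 and 313 FPKM. No 2 groups overlapped, and the order was sgControl PBS, sgControl lactate, sgHcar1 PBS, sgHcar1 lactate. Lactate raised it by 0.82 ± 0.04 in sgControl (adjusted p = 1.09e-08) and 0.77 ± 0.04 in sgHcar1 (adjusted p = 1.13e-08), which is 1.78-fold and 1.71-fold in mean FPKM. Fosl1 shares 1163 exon bases with Ccdc85b on the other strand (GENCODE M21, GRCm38). Ccdc85b had 119, 88.5, 86.4 and 50.5 FPKM in the 4 groups, highest where Fosl1 was lowest and lowest where it was highest, and whether the authors' counting used strand is not given in the sources used here.

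Fosl2, which encodes FRA2, followed the same order at a lower level. It had 8.78, 8.0 and 8.32 FPKM in sgControl PBS, 13.5, 13.6 and 13.4 in sgControl lactate, 14.96, 14.2 and 14.4 in sgHcar1 PBS and 32.8, 30.0 and 32.1 in sgHcar1 lactate. None of the 4 groups overlapped, although sgControl lactate and sgHcar1 PBS lay close together. The lactate effect was 0.63 ± 0.04 in sgControl (adjusted p = 1.32e-07) and 1.07 ± 0.04 in sgHcar1 (adjusted p = 1.02e-09).

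Jun, the founding AP-1 gene and a target of JNK signalling, showed opposite lactate effects in the 2 populations. The sgControl libraries had 84.4, 79.6 and 79.5 FPKM of Jun in PBS and, in lactate, 54.3, 62.7 and 58.2 FPKM. In the sgHcar1 libraries Jun was at 42.4, 40.9 and 41.7 FPKM in PBS and, in lactate, at 163, 145 and 166 FPKM. None of the 4 groups overlapped, with sgHcar1 PBS the lowest and sgHcar1 lactate the highest. Jun fell by 0.47 on the log2 scale in sgControl (SE 0.06, adjusted p = 2.71e-05) and rose by 1.90 ± 0.06 in sgHcar1 (adjusted p = 1.75e-10), a 3.80-fold increase. It shares 232 exon bases with the antisense gene Junos, which had 11.8, 9.65, 3.16 and 0.784 FPKM in the 4 groups.

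Junb encodes a Jun protein that activates many AP-1 sites more weakly than Jun and can restrain it. It stood at 27.2, 25.4 and 28.0 FPKM in sgControl PBS and 44.6, 52.4 and 44.2 FPKM in sgControl lactate. Levels in sgHcar1 were 36.6, 40.9 and 36.6 FPKM in PBS and, in lactate, 154, 154 and 138 FPKM. The groups did not overlap, and the sgHcar1 PBS libraries were below sgControl lactate, unlike for Fosl1 and Fosl2. Lactate raised Junb by 0.78 ± 0.07 in sgControl (adjusted p = 2.99e-06) and by 1.94 ± 0.07 in sgHcar1 (adjusted p = 1.01e-09). It shares 173 exon bases with Prdx2 on the other strand, which had 87.6, 44.3, 60.0 and 39.0 FPKM in the 4 groups.

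Jund, the Jun gene that is usually expressed without a stimulus, had group means between 21.7 and 38.3 FPKM. Its level was 38.1, 39.0 and 37.8 FPKM in sgControl PBS and 38.3, 39.3 and 37.0 FPKM in sgControl lactate. With the Hcar1 guide, Jund was at 21.5, 23.0 and 20.6 FPKM in PBS and, in lactate, at 37.7, 31.3 and 34.6 FPKM. The sgHcar1 PBS libraries were alone at the bottom, and the other neighbouring groups overlapped. The lactate effect was -0.00 ± 0.06 in sgControl (adjusted p = 0.978, with the sign turning under other scalings) and 0.65 ± 0.06 in sgHcar1 (adjusted p = 1.71e-06). In the annotation 877 of its exon bases are shared with the antisense gene Gm11175.

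Egr1 encodes a zinc finger factor of GC-rich promoters and is a standard readout of ERK activity. It stood at 0.912, 0.808 and 0.628 FPKM in sgControl PBS and 4.70, 5.37 and 4.96 FPKM in sgControl lactate. The sgHcar1 cells held 28.7, 30.2 and 29.8 FPKM of Egr1 in PBS and, in lactate, 301, 276 and 294 FPKM. The 4 groups were far apart, with the sgHcar1 cells in PBS already above the sgControl cells in lactate. Fragments summed to 178, 1127, 6289 and 53666. Lactate raised Egr1 by 1.75 ± 0.06 in sgControl (6.40-fold, adjusted p = 1.06e-09) and by 3.25 ± 0.06 in sgHcar1 (9.82-fold, adjusted p = 7.07e-12).

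Egr2, a relative of Egr1 known from Schwann cells and lymphocytes, was low in 3 groups. It had 0.170, 0.224 and 0.249 FPKM in sgControl PBS and 0.537, 0.831 and 0.696 FPKM in sgControl lactate. Egr2 levels in sgHcar1 were 0.701, 0.977 and 0.818 FPKM in PBS and, in lactate, 15.2, 13.4 and 15.2 FPKM. The sgControl lactate and sgHcar1 PBS libraries overlapped, the sgControl PBS libraries were below both, and the sgHcar1 lactate libraries stood far above. Lactate raised Egr2 by 0.47 ± 0.08 in sgControl (3.21-fold, adjusted p = 0.000394) and by 3.09 ± 0.08 in sgHcar1 (17.6-fold, adjusted p = 6.33e-11). Egr2 too could enter the fit only by being high in sgHcar1 lactate, so the sgHcar1 effect stands as a description. At 37 and 117 fragments over 3 libraries the sgControl values are coarse, and with a pseudocount of 0.1 the sgControl effect was 1.32.

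Arc encodes a cytoskeleton-associated protein, so it is the 1 member that is no transcription factor. Its level was 3.20, 3.26 and 3.08 FPKM in sgControl PBS and 0.933, 1.75 and 1.55 FPKM in sgControl lactate. In sgHcar1, Arc had 0.947, 0.809 and 0.790 FPKM in PBS and, in lactate, 20.9, 13.4 and 20.6 FPKM. The sgHcar1 PBS and sgControl lactate libraries overlapped, sgControl PBS was above them, and sgHcar1 lactate was highest, with replicate 2 below the other two. Fragments summed to 494, 215, 123 and 2306. Arc fell by 0.81 in sgControl (SE 0.16, a 2.26-fold decrease, adjusted p = 0.000984) and rose by 3.36 ± 0.16 in sgHcar1 (adjusted p = 6.75e-09).

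**Figure D2:**
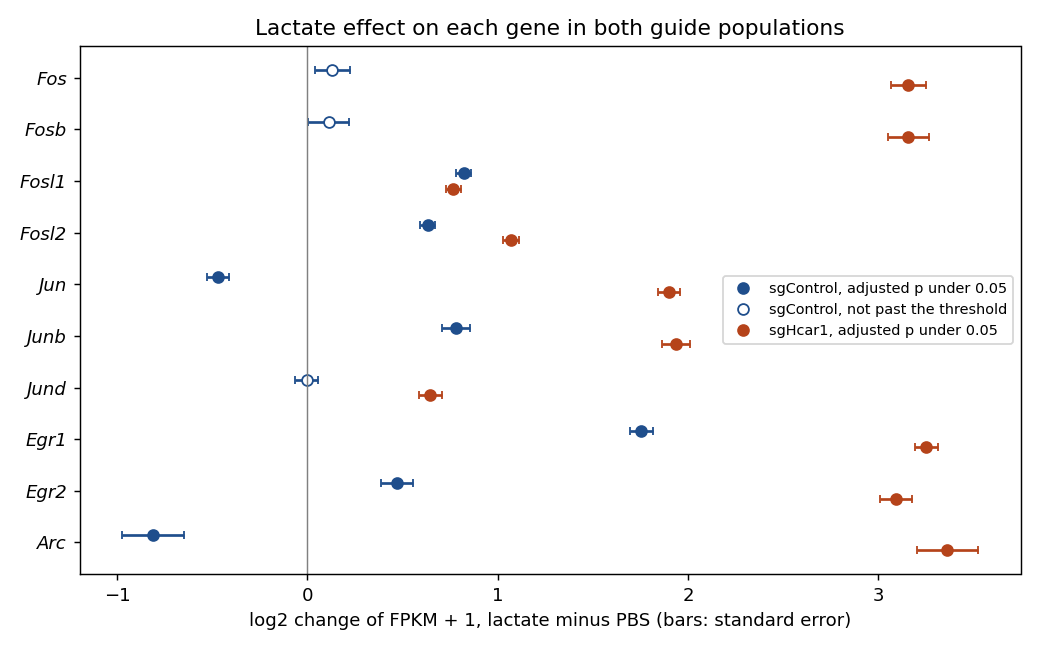
Lactate effect on each of the 10 genes in sgControl and in sgHcar1 cells, as log2 change of FPKM + 1 (limma), with bars for the standard error and open points for values that did not pass the test. Jun and Arc are below 0 in sgControl and above 0 in sgHcar1, while the Fosl1 effects are 0.82 and 0.77.

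The difference between the 2 lactate effects was tested directly. It was larger in sgHcar1 for 9 members and smaller for none, with Fos and Egr2 counted although they had entered the fit only through sgHcar1 lactate, in a contrast where 30.4% of all genes were called higher and 28.7% lower. Arc differed most, by 4.17 ± 0.23 (adjusted p = 1.22e-07, rank 4 of 13736), followed by Fosb at 3.05 ± 0.15 (adjusted p = 7.10e-08), Fos at 3.03 ± 0.13 (adjusted p = 2.83e-08), Egr2 at 2.62 ± 0.12 (adjusted p = 3.23e-08) and Jun at 2.37 ± 0.08 (adjusted p = 5.97e-09). For Egr1 it was 1.5 ± 0.09 (adjusted p = 2.00e-07), a value that falls to 0.75 with a pseudocount of 0.1. Junb differed by 1.15 ± 0.10, Jund by 0.65 ± 0.08 and Fosl2 by 0.44 ± 0.06, the last going to 0.20 when each library is rescaled to the same sum. Fosl1 did not pass the test, with -0.05 ± 0.06 (adjusted p = 0.419). Under rescaling it did, at -0.29 (adjusted p = 0.00277), and under quantile normalization at -0.39 (adjusted p = 0.00134).

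The summed FPKM per library was not the same between groups, at 310109 to 324562 for sgControl, 362815 to 367977 for sgHcar1 PBS and 411996 to 421984 for sgHcar1 lactate. Rescaling every library to 1000000 shifted the median log2 change of all genes by 0.04 in the sgControl lactate contrast, -0.12 in the sgHcar1 lactate contrast, -0.21 in their difference, -0.16 for the guides in PBS and -0.37 for the guides in lactate. Among called genes, the share that was higher went from 50.9% to 40.0% for lactate in sgHcar1, from 51.4% to 30.1% for the difference, from 49.9% to 38.6% for the guides in PBS and from 50.3% to 31.7% for the guides in lactate. The members' calls in sgHcar1 all kept their direction under that scaling, with effects from 0.48 for Jund to 3.96 for Fos.

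Before any lactate, 9 of the 10 genes were called different between the 2 populations. So were 10529 of all 13736 genes, and the count alone says little about the members. In PBS, 6 members were higher in sgHcar1 than in sgControl and 3 were lower, where 38.2% of all genes were higher and 38.4% lower. Egr1 was 37.8-fold higher (4.10 ± 0.06, adjusted p = 3.07e-13). Fosl1 was 2.13-fold higher (1.08 ± 0.04, adjusted p = 4.71e-10) and Fosb 2.61-fold higher (0.79 ± 0.11, adjusted p = 4.06e-05). Egr2 was 3.88-fold higher (0.59 ± 0.08, adjusted p = 4.95e-05), and with a pseudocount of 0.1 its log2 difference was 1.57. Fosl2 and Junb were higher by 0.73 ± 0.04 and 0.48 ± 0.07, which is 1.74-fold and 1.41-fold. Arc was lower, with -1.18 ± 0.16 (adjusted p = 4.18e-05), and so were Jun with -0.95 ± 0.06 (adjusted p = 4.31e-08) and Jund with -0.79 ± 0.06 (adjusted p = 2.42e-07). Fos, with 0.09 ± 0.09 (adjusted p = 0.407), did not pass the test at its level of 18 and 24 fragments per group.

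In lactate, 9 members, Fos and Egr2 again included, were higher in sgHcar1 than in sgControl and 1 was lower, where 41.3% of all genes were higher and 40.9% lower. Egr1 was 57.9-fold higher (5.60 ± 0.06, adjusted p = 2.50e-14), Fos 38.6-fold, Fosb 28.0-fold, Egr2 21.2-fold and Arc 13.0-fold. Jun and Arc, lower in sgHcar1 in PBS, were higher there in lactate, by 1.42 ± 0.06 for Jun and 2.99 ± 0.16 for Arc. Jund was the gene called lower, with -0.14 ± 0.06 (adjusted p = 0.0415) and overlapping libraries, and this call was lost with the replicate number as a block (adjusted p = 0.0542) and in 11 other alternatives. These include leaving out any sgControl PBS library, sgControl lactate replicate 1 or 2, sgHcar1 PBS replicate 1, or sgHcar1 lactate replicate 2 or 3, and without sgHcar1 lactate replicate 2 the difference was -0.08 (adjusted p = 0.176). Rescaling each library to the same sum moved it to -0.56 (adjusted p = 7.77e-06) and quantile normalization to -0.32 (adjusted p = 0.000458). The 2 lactate contrasts and the 2 guide contrasts share their groups, so these values are not independent of one another.

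The make-up of the Fos and Jun families differed between groups. Of the exon bases of Fosl1 and Jund, 1163 of 2033 and 877 of 1668 are shared with genes on the other strand. Whether counting used strand is not given, so the shares of both may carry reads of the overlapping genes. Fosl1 supplied 90.5% ± 0.378 of the summed FPKM of the 4 Fos genes in sgControl PBS, 91.5% ± 0.314 in sgControl lactate, 91.8% ± 0.258 in sgHcar1 PBS and 82.5% ± 1.18 in sgHcar1 lactate (SD, n = 3). All 3 sgHcar1 lactate libraries were below the other 9. There Fosb made up 6.91% ± 0.647 and Fos 2.52% ± 0.222, against at most 1.16% and 0.278% in any other library, while Fosl2 stayed between 6.82% and 8.78% in all 12 libraries. Even with its 45.6-fold increase, Fos RNA thus remained far below Fosl1 RNA.

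Within the Jun family, Jun had the largest share in sgControl PBS, with 55.4% ± 0.844 against 26.2% ± 0.818 for Jund and 18.4% ± 0.832 for Junb. In sgControl lactate the shares were 40.6% ± 1.09 for Jun, 32.7% ± 1.15 for Junb and 26.6% ± 1.24 for Jund. In sgHcar1 PBS they were 41.1% ± 1.83, 37.5% ± 1.38 and 21.4% ± 0.560. In sgHcar1 lactate Jun and Junb were close, at 46.4% ± 2.53 and 43.5% ± 2.89, and Jund was down to 10.1% ± 0.579. The Junb share was lowest in sgControl PBS and the Jund share lowest in sgHcar1 lactate, with no overlap with other groups.

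Since Fos proteins need a Jun partner, the RNA of the 2 families was also set side by side. The Fos genes summed to 98.3, 172.7, 206 and 392 FPKM in the 4 groups and the Jun genes to 146, 144, 101 and 341 FPKM. Their ratio was 0.672 ± 0.0192 in sgControl PBS, 1.20 ± 0.0431 in sgControl lactate, 2.04 ± 0.117 in sgHcar1 PBS and 1.15 ± 0.0222 in sgHcar1 lactate. The ratio of the sgHcar1 lactate libraries overlapped that of sgControl lactate, although both of its sums were larger. Protein was not measured. The ratio of Egr1 to Egr2 was 3.84 ± 1.44, 7.44 ± 1.17, 36.1 ± 4.98 and 19.9 ± 0.590, so Egr1 was the more abundant in every library.

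**Figure D3:**
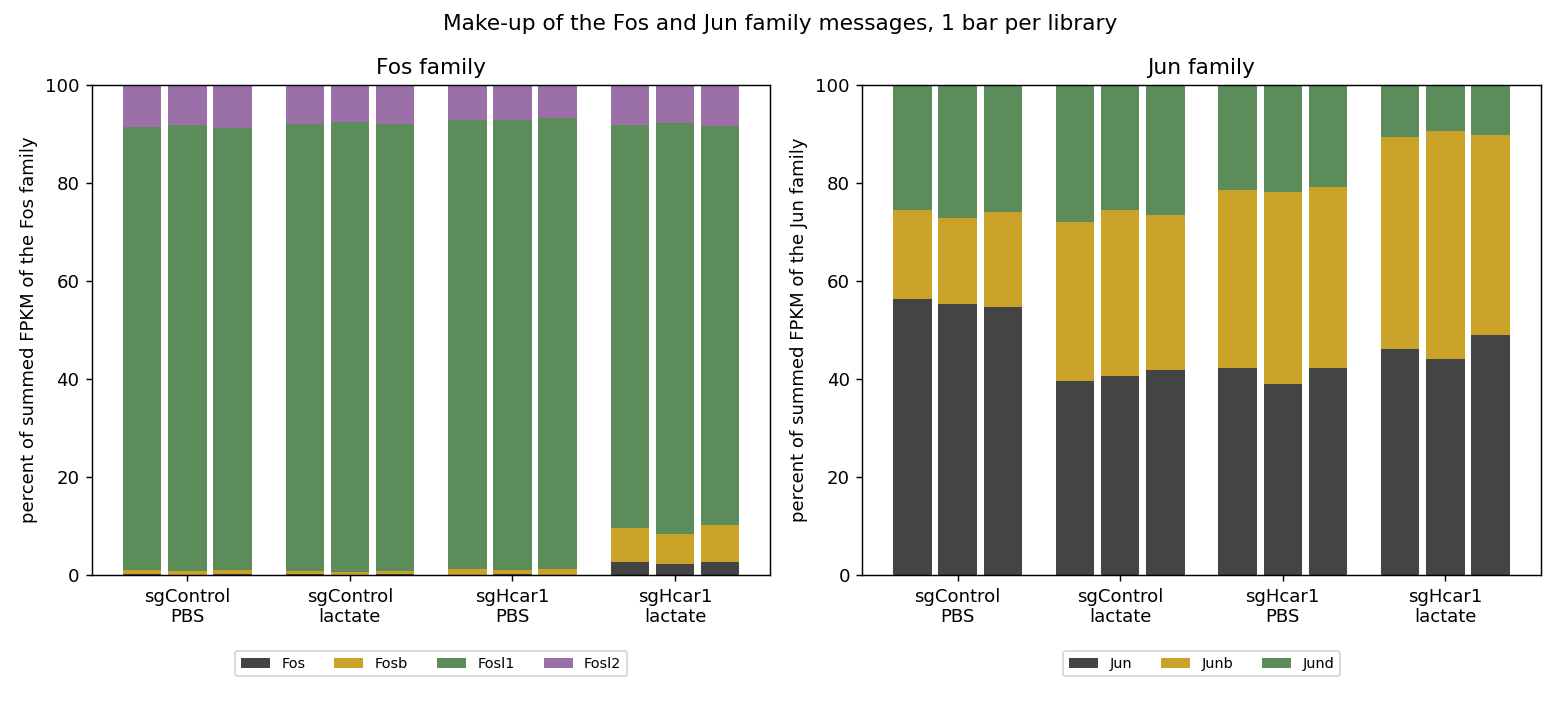
Make-up of the Fos family (left) and the Jun family (right) as stacked percentages of the family's summed FPKM, with 1 bar per library and 3 per group. Fosl1 fills at least 81.5% of every Fos bar, and the Jund part is smallest in the 3 sgHcar1 lactate bars, with a mean of 10.1%. Fosl1 and Jund share exon bases with genes on the other strand.

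The members are short genes, from 1668 bases (Jund) to 22042 bases (Fosl2) in GENCODE M21, against a median of 24141 bases for 10338 tested protein-coding genes matched by symbol. Of those without a printed promoter, Fosl1 lies on chromosome 19, Fosl2 on chromosome 5, Junb and Jund on chromosome 8 and Arc on chromosome 15.

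Among 29 other immediate early genes, 26 were tested. Lactate raised 13 and lowered 7 of them in sgControl, beside 33.9% and 31.9% of all genes, and raised 19 and lowered 6 in sgHcar1, beside 36.8% and 35.4%, with median log2 changes of 0.16 and 0.53 against 0.00 and 0 over all genes. Plk2, a polo-like kinase gene, rose in both, by 2.03 ± 0.06 and 3.18 ± 0.06. Cyr61, which encodes a matricellular protein and is a target of SRF and YAP, rose by 3.16 ± 0.07 in sgHcar1 and had -0.07 ± 0.07 in sgControl (adjusted p = 0.430). Csrnp1 and the antiproliferative gene Btg2 rose in sgHcar1 by 2.83 ± 0.06 and 2.65 ± 0.06, more than their 0.55 ± 0.06 and 0.49 ± 0.06 in sgControl. Ier2 rose by 1.20 ± 0.05 in sgControl and 1.72 ± 0.05 in sgHcar1. Myc and Klf4 had the opposite order, with rises of 1.41 ± 0.05 and 1.10 ± 0.05 in sgControl against 0.57 ± 0.05 and 0.18 ± 0.05 in sgHcar1. Levels fell in sgHcar1 for Ctgf, Klf2 and Ier5l, from 5.12, 2.58 and 4.70 FPKM in PBS to 0.803, 0.354 and 0.805 FPKM in lactate. For the difference between the lactate effects, 14 of the 26 were called higher and 7 lower, beside 30.4% and 28.7% of all genes. The largest were Cyr61 at 3.23 ± 0.10, Csrnp1 at 2.28 ± 0.09, the phosphatase gene Dusp1 at 2.26 ± 0.11 and Egr3 at 2.20 ± 0.18. Like Jun and Arc, Egr3 fell in sgControl, by 0.51, and rose in sgHcar1, by 1.69 ± 0.13. Egr4, Nr4a3 and Npas4 did not pass the filter, none of them above 0.166 FPKM.

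Of 16 other bZIP genes whose proteins can pair with Jun or Fos, 11 were tested. Lactate raised 10 and lowered 1 in sgControl, where 33.9% of all genes rose and 31.9% fell, and raised 9 and lowered none in sgHcar1, where 36.8% rose and 35.4% fell, with medians of 1.47 and 0.65. Atf3, a stress-induced partner of Jun, rose by 4.24 ± 0.09 in sgControl, from 2.45 ± 0.490 to 63.9 ± 3.65 FPKM, and was at 0.0101 and 0.0570 FPKM in sgHcar1 cells in PBS and lactate. Ddit3 (CHOP) rose by 3.92 ± 0.06 in sgControl and 2.54 ± 0.06 in sgHcar1, and Atf4 by 1.79 ± 0.03 and 0.35 ± 0.03. The small Maf genes rose with either guide, Mafk by 2.10 ± 0.06 in sgControl and 2.24 ± 0.06 in sgHcar1 and Maff by 1.39 ± 0.04 and 2.11 ± 0.04. The difference between the lactate effects was called lower for 7 of the 11 and higher for 3 (Atf2, Maff and Maf), beside 28.7% and 30.4% of all genes, with a median of -0.97. It was not called for Mafk (0.14 ± 0.08, adjusted p = 0.153). Atf3 and Jun, whose proteins can form a dimer, moved in opposite directions in sgControl, and in sgHcar1 Jun rose while Atf3 was near 0.

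**Figure D4:**
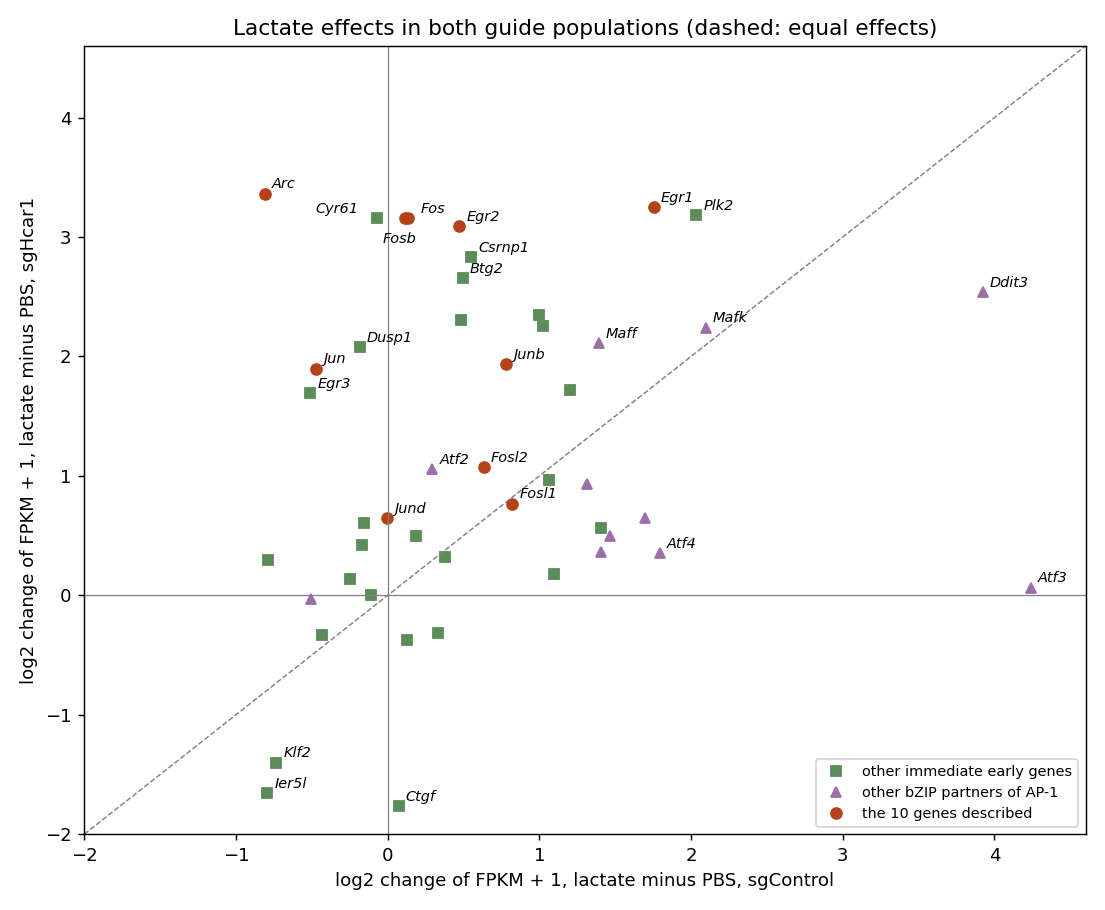
Lactate effect in sgControl (horizontal axis) against the effect in sgHcar1 (vertical axis), both as log2 change of FPKM + 1, for the 10 genes, the other immediate early genes and the other bZIP partners that were tested, with equal effects on the dashed line. Arc and Jun lie left of 0 and above 0, while Atf3, at 4.24 and 0.06, lies far to the right.

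The inputs to these promoters, 29 genes for MAP kinases, their downstream kinases, SRF, its ETS partners and CREB proteins, were all tested. Lactate raised 13 and lowered 9 in sgControl, beside 33.9% and 31.9% of all genes, and raised 14 and lowered 7 in sgHcar1, beside 36.8% and 35.4%, with medians of 0.06 and 0.13. The share of falls in sgControl is near that of all genes. In sgHcar1 the largest were falls of Rps6ka4 (MSK2), Elk3 and Mapk14 (p38α), with -1.54 ± 0.04, -1.21 ± 0.03 and -1.08 ± 0.05, and a rise of Rps6ka3 (RSK2), 0.83 ± 0.03. In sgControl they were Rps6ka1 with -0.77 ± 0.08, Map2k1 (MEK1) with -0.73 ± 0.03, Rps6ka4 with -0.56 ± 0.04 and Elk4 with 0.52 ± 0.07. The RNA of a kinase does not give its activity.

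Of 9 genes for regulators of Fos and Jun RNA or protein, 8 were tested, with 5 raised and 3 lowered by lactate in sgControl (33.9% and 31.9% of all genes) and 5 raised and 2 lowered in sgHcar1 (36.8% and 35.4%). Zfp36 encodes a protein that speeds the decay of AU-rich RNAs and is an immediate early gene itself, and it rose by 0.48 ± 0.08 and 2.30 ± 0.08. Rfwd2 (COP1), which directs Jun to degradation, rose by 0.47 ± 0.05 and 0.53 ± 0.05. Hnrnpd (AUF1) fell in both, with -0.74 ± 0.04 and -0.22 ± 0.04. The EGR corepressor Nab2, itself an Egr target, was 11.6 ± 0.281 and 9.10 ± 1.08 FPKM in sgControl and 35.0 ± 1.05 and 31.6 ± 1.84 FPKM in sgHcar1, PBS first, and was higher in sgHcar1 in PBS by 1.52 ± 0.07. Lactate lowered Nab2 in sgControl, by 0.32, while Egr1 rose. Nab1 was higher in sgHcar1 in PBS by 0.50 ± 0.03.

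Of 26 genes taken as AP-1 or EGR targets, 20 were tested, with 10 raised and 4 lowered by lactate in sgControl and 12 raised and 3 lowered in sgHcar1. In sgHcar1, Areg, an EGF receptor ligand, rose by 3.18 ± 0.12, from 1.39 ± 0.0533 to 20.7 ± 0.645 FPKM, and Plaur, the urokinase receptor, by 1.81 ± 0.03. Ccnd1 (cyclin D1) and Mmp14, a membrane-bound collagenase, fell there, with -1.79 ± 0.04 and -1.59 ± 0.04. In sgControl, Spp1 (osteopontin) rose by 1.64 ± 0.05, Lif by 0.94 ± 0.09 and Mmp9 by 0.78 ± 0.11, and Ccnd1 fell, with -0.99 ± 0.04. The medians were 0.15 in sgControl and 0.24 in sgHcar1, and the counts stand beside 33.9% of all genes that rose and 31.9% that fell in sgControl, and 36.8% and 35.4% in sgHcar1.

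Likeness of pattern was measured for 5 members as the root mean square difference of log2(FPKM + 1), each gene centred on its mean over the 12 libraries, against every other tested gene with a standard symbol. The neighbours were picked by their pattern in these same libraries, so an order of group means shared with the member is no separate result. Nearest to Fos were the co-chaperone gene Dnajb4 (0.145), Cyr61 (0.159) and Egr2 (0.217), all of which were highest in sgHcar1 lactate. Dnajb4 had 6.90, 7.63, 5.96 and 66.4 FPKM in the 4 groups. Arc was nearest to Dnajb4 (0.443), Dedd2 (0.491) and Cyr61 (0.503). Fosl1 had closer neighbours, Osgin2 (0.0696), Eif2s2 (0.0770) and Srgap3 (0.0774), with group means in the same order as those of Fosl1. Jun was nearest to Lrrc59 (0.251), Ahsa2 (0.282) and Ppef2 (0.283). Egr1 had no near neighbour at that scale, the closest being Csn3 (0.603), the tissue factor gene F3 (0.706) and the EGF receptor ligand gene Ereg (0.738). F3 had 0.291, 1.41, 12.4 and 53.0 FPKM in the 4 groups.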

How the data were processed

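RNA from 12 MC38 libraries was prepared with Trizol and a TruSeq RNA kit, per the labels' protocols. The authors deposited 1 table of FPKM with 1 value per gene and library, per the file headers. The build GRCm38, featureCounts 1.5.0-p3 and HISAT2 2.0.5 are listed in the submitters' processing notes, and the fragments that make up the library total are not given in the sources used here. Gene identifiers are those of the C57BL/6NJ annotation. The column letters of sgHcar1 were read by elimination.

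FPKM were tested as log2(FPKM + 1) with limma 3.58.1 (R 4.3.3), with an intensity trend, 1 mean per group over all 12 libraries and no replicate block, on the 13736 genes that reached 1 FPKM in 3 or more libraries. The tests are two-sided, and p-values were adjusted over all genes in each of 5 contrasts. The model was tested on simulated data. Read depth is unknown beyond the relative depth and the smallest whole fragment numbers.

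The members, the gene lists and the tests were chosen with earlier results of these data known. All members were named, with up to 4 genes per list and contrast (the largest among those that passed the test), and the 3 nearest patterns of 5 members. Values of a gene named so are also given for other contrasts. Ctgf, Klf2 and Ier5l were named in addition, as falls in sgHcar1. Overlapping antisense genes, marker levels and the genes outside the filter are given as levels. Alternatives were a pseudocount of 0.1, no filter, a mean of at least 5 FPKM, rescaling to a common sum, median-ratio scaling, quantile normalization, no trend, a replicate block, fewer groups and leaving out each library. A comparison of the members' protein sequences was not run. Python 3.11.15 (matplotlib 3.10.9, pandas 2.3.3, numpy 2.4.6) made the summaries and figures.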

Additional observations from a re-analysis of the deposited data

Results flagged for a closer look

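For 9 of the 10 genes the lactate effect differed between the 2 guided populations in a direct test (limma, sgHcar1 minus sgControl, log2 scale). The differences were 4.17 for Arc, 3.05 for Fosb, 3.03 for Fos, 2.62 for Egr2, 2.37 for Jun, 1.5 for Egr1, 1.15 for Junb, 0.65 for Jund and 0.44 for Fosl2. Fos and Egr2 had reached 1 FPKM only in sgHcar1 lactate and entered the fit only through that group, so their differences stand as descriptions. For Jun and Arc the effects had opposite signs, with falls in sgControl and rises in sgHcar1. Within each guide their lactate and PBS libraries did not overlap, and the share of all genes that separate in this way was not counted. In the direct test of the difference 30.4% of all genes were called higher and 28.7% lower.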

How the results depend on the processing

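Of 1030 values recomputed for 50 results of the members over 21 alternatives, 1011 kept their direction and their side of the threshold, 12 lost the call, 3 gained one and 4 changed sign. All 4 sign changes were the lactate effect on Jund in sgControl, -0.00 as reported, which was 0.042 under rescaling to 1000000, 0.037 under quantile normalization, and from -0.023 to 0.018 when 1 library was left out (above 0 without sgControl PBS replicate 2, at 0.0092, and without sgControl lactate replicate 3). All 12 lost calls were Jund between the guides in lactate, with adjusted p from 7.77e-06 to 0.176 over the 21 alternatives. The 3 gained calls were Fosl1 for the difference, given above, and Fos between the guides in PBS under quantile normalization (0.29, adjusted p = 0.00765). The number of EGR corepressors called for lactate in sgHcar1 went from 1 to 2 under rescaling, under quantile normalization and with only the groups compared, and ranged from 1 to 2 over the leave-outs (2 without sgControl lactate replicate 1 or sgHcar1 lactate replicate 1). Inputs called between the guides in PBS went from 20 of 29 tested to 13 of 20 tested with a mean of at least 5 FPKM, a filter that leaves fewer to call. Regulators of Fos and Jun called there went from 7 to 4 under rescaling. In the main fit 38.2% of all genes were called higher and 38.4% lower between the guides in PBS. For lactate in sgHcar1 the shares were 36.8% and 35.4%. What moved the corepressor and regulator counts was not tested. A mean of at least 5 FPKM leaves 8 members, without Fos and Egr2.

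Deviations of same-numbered libraries correlated with r from -0.0505 to 0.0850 over genes (18 pairs), against -0.102 to 0.0768 for 36 pairs with different numbers. No shared deviation of same-numbered libraries was thus seen, which does not show whether they were prepared together. With the replicate block 7, 10, 9, 9 and 9 members were called in the 5 contrasts, against 7, 10, 9, 9 and 10 without it. Of all 13736 tested genes, 8938, 9899, 8044, 10480 and 11260 were called with the block, in the same order. Without the block 9031, 9917, 8117, 10529 and 11292 were called, so the member counts alone say little about the members. Fos and Egr2 rest on few fragments in PBS, which limits how finely their folds can be stated.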
